A study of Homo sapiens with 18 samples.

Results

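The genes described here are 10 members of the IAP and BCL2 families of apoptosis regulators, namely BIRC7, BIRC2, BIRC3, XIAP, BCL2L1, MCL1, BBC3, PMAIP1, BCL2L11 and BAX. Each was found in the gene count table by its Ensembl identifier, which gave 10 of 61806 genes, and all 10 passed the filter on low counts that left 19743 genes for the tests. BIRC7 was selected on these same libraries for its rise in APOA4-KO, so its values in every comparison that holds APOA4-KO libraries are a description without a test. The other 9 members were taken by symbol and were tested together with all other genes.

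The control was wild-type HepG2, a cell line from a human hepatoma. In APOA4-KO, derived from HepG2, CRISPR-Cas9 was used to edit the apolipoprotein gene APOA4. This line was grown from picked single colonies with mutations in both alleles, and it stands in these data as a single line. Libraries of poly(A) RNA were made from cells that had not been in hypoxia (0 h) and from cells kept in hypoxia for 24 h or 48 h, with 3 libraries in each of the 6 groups and 18 in all. The 0 h cells were the only cells kept out of hypoxia, so hypoxia and time in culture cannot be told apart, and a difference between the lines cannot be told apart from any other way in which their cells differ. The labels do not say whether the replicates came from separate cultures, so the p-values measure the spread between these libraries, which may be technical.

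Inhibitor of apoptosis proteins (IAPs) carry BIR domains with which they bind caspases or the adaptors that lead to them. XIAP blocks caspases directly, BIRC2 and BIRC3 are ubiquitin ligases of tumour necrosis factor and NF-kB signaling, and BIRC7, also called livin or ML-IAP, is an IAP best known from melanoma and other tumours. BCL2 family proteins act one step earlier, at the mitochondrial outer membrane: BCL2L1 (BCL-XL) and MCL1 keep BAX and its relatives in check, BBC3 (PUMA), PMAIP1 (NOXA) and BCL2L11 (BIM) are BH3-only proteins that relieve this restraint, and BAX opens the membrane. In hepatocytes, BCL-XL and MCL1 are both known to be needed for survival.

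In GENCODE 29 on GRCh38, BIRC7 (ENSG00000101197) lies on the forward strand at chr20:63235883-63240507, and no base of its exons is shared with another gene. BIRC2 and BIRC3 are neighbours on chromosome 11, 14.4 and 14.5 Mb from the edited gene. Of the 3314 exon bases of BCL2L1, 1424 (43.0%) are shared with ABALON on the opposite strand, and 727 of the 6658 exon bases of BCL2L11 (10.9%) are shared with MIR4435-2HG, also on the opposite strand. The labels describe dUTP marking of the second strand, which keeps strand, whereas the study's methods name a kit without saying that it does, and whether the counting used strand is not stated. Thus reads from these pairs may not have been separated. The study's methods name an Ensembl reference other than GENCODE 29, so the exon bases behind the deposited counts may differ from those given here. Over the 18 libraries, the total count of ABALON was 90270 against 1125430 for BCL2L1, and that of MIR4435-2HG was 36514 against 34627 for BCL2L11. The other 8 members share at most 80 exon bases with another gene.

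RefSeq promoter windows (GRCh38.p14, 250 bases before to 50 bases after a start site) were found for 9 of the 10 members, all but MCL1. There were 13 windows in all, since a gene can have several starts. They were searched on both strands for ACGTG and GCGTG, the core letters to which hypoxia-inducible factors bind, and for CACGTG, the palindromic E-box, which contains ACGTG on either strand. Of 35116 windows of this length, 21.4% held ACGTG, 36.5% held GCGTG, 48.4% held at least one of both and 7.26% held CACGTG. Of the 13 windows of members, 10 held ACGTG or GCGTG, and each of the 9 members had such a window. Counts by member cannot be set against these shares of windows, since a gene can have several windows. Some windows of BIRC2 and of XIAP overlap, so the 13 windows are not all separate sequences. By member, the shorter ACGTG was found in 4 and CACGTG in 3, BIRC7, BBC3 and BAX. The stretches of these 3 that hold CACGTG upstream of the gene are shown because BIRC7, BBC3 and BAX also moved in different ways below, and capitals mark ACGTG or GCGTG on either strand:
BIRC7, chr20:63235655-63235882, forward strand: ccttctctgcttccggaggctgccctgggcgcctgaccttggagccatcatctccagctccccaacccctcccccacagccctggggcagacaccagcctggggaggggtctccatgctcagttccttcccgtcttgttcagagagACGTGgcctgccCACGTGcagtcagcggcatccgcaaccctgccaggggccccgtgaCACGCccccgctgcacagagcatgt
BBC3, chr19:47232767-47232917, reverse strand: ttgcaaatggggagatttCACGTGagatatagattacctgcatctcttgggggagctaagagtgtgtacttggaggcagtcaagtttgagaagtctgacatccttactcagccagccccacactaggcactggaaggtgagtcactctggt
BAX, chr19:48954625-48954814, forward strand: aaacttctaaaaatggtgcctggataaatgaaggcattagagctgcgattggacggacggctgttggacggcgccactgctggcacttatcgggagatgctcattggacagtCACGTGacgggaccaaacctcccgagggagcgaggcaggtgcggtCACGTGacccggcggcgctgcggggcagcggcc
In BIRC7, CACGTG began at position −92 from the RefSeq start. In BAX, the whole window held 4 CACGTG, beginning at −138, −93, −45 and −14. These matches are a description of letters and not of binding.

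Library totals ranged from 76481820 to 91604947 counts. APOA4 itself was 7.71 to 8.21 CPM in the 3 APOA4-KO groups and 9.03 to 20.2 CPM in the 3 HepG2 groups, where CPM is the count relative to the TMM-scaled library size, so its transcript was present in the edited line. APOA4-KO 24 h replicate 1 had the lowest mean correlation with its own group, at 0.966 against 0.970 for the next lowest library. Calls and overlaps of the members at 24 h that rest on this replicate are given with and without it. Summed over 10 hepatocyte and hepatoma markers, the libraries held 49262 to 67906 CPM. The summed level was 39.8 to 75.8 CPM for 6 leukocyte and macrophage markers, 29.1 to 52.5 for 6 fibroblast markers, 7.91 to 16.7 for 5 endothelial markers (CLEC4G at 0 in every library) and 1.85 to 3.82 for 6 melanocyte markers (TYR at 0 in every library). The leukocyte and macrophage sum was highest in APOA4-KO at 48 h, at 69.1 to 75.8 CPM against 51.2 to 53.1 CPM in HepG2 at 48 h, with most of it in CD68, and its part in the results was not tested. The part of differing cell numbers and of RNA per cell cannot be told apart from these bulk libraries.

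At 0 h, in culture before hypoxia, APOA4-KO differed from HepG2 in 4 of the 9 members taken by symbol: PMAIP1 was higher, and BBC3, BCL2L11 and BAX were lower (edgeR quasi-likelihood test, adjusted p under 0.05). Among all genes tested, 12.9% were higher and 17.6% lower at 0 h. At 24 h, BIRC2, BIRC3, XIAP and MCL1 were higher in APOA4-KO and BCL2L1, BBC3, BCL2L11 and BAX were lower, against 23.6% of all genes higher and 24.6% lower. At 48 h, BIRC2, XIAP, BCL2L1, MCL1 and BBC3 were higher and BAX was lower, against 23.5% and 27.3% of all genes. With library size alone in place of TMM, the median log2 fold change of all genes at 48 h shifted by −0.15, the share of calls that were higher went from 46.3% to 34.7%, and 4 members were higher and 3 lower. Over the 9 members, the median log2 fold change at the 3 times was −0.01, 0.10 and 0.25, beside −0.01, 0.01 and −0.04 over all genes tested.

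**Figure D1:**
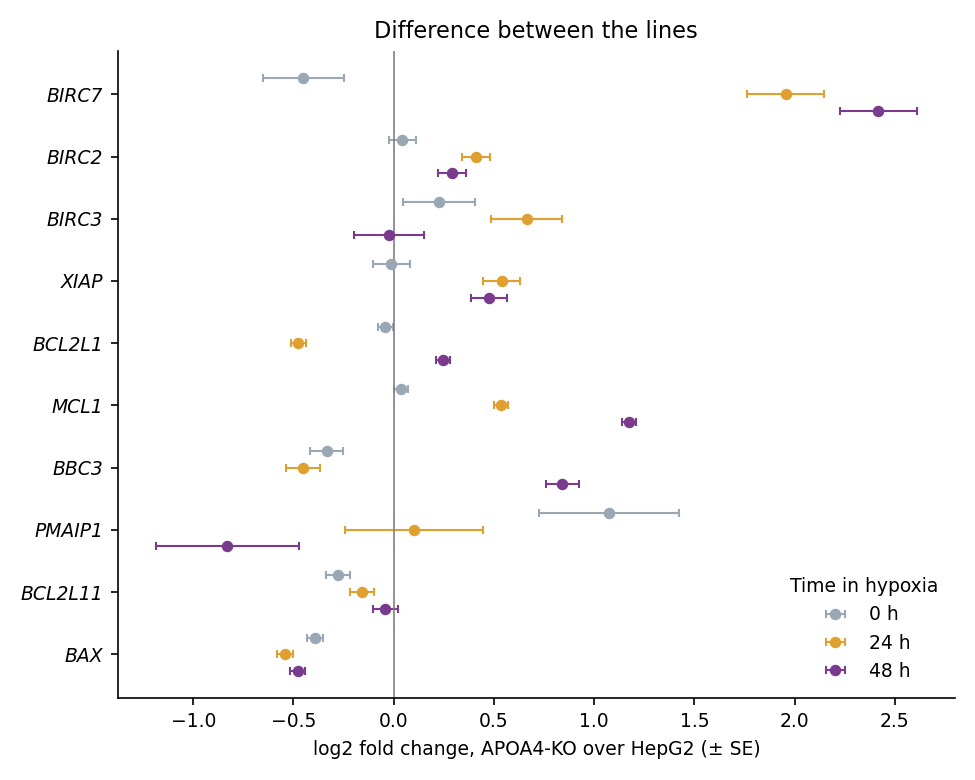
Log2 fold change of APOA4-KO over HepG2 for each of the 10 members at 0 h, 24 h and 48 h of hypoxia, with the standard error from edgeR (18 libraries). BIRC7 and MCL1 lie farthest to the right at 48 h, at 2.42 and 1.18, while BAX lies to the left of 0 at all 3 times; BIRC7 is shown as a description.

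Within HepG2, BIRC3, BCL2L1 and MCL1 rose and BAX fell from 0 h to 24 h, in a background of 11.4% of genes that rose and 18.3% that fell. From 0 h to 48 h, BIRC2, BIRC3, XIAP and MCL1 rose and BBC3, BCL2L11 and BAX fell, against 13.1% and 14.6% of all genes. Within APOA4-KO, BIRC2, BIRC3, XIAP and MCL1 rose and BCL2L1, BBC3 and BAX fell at 24 h, against 21.5% and 22.8% of all genes. At 48 h, BIRC2, BIRC3, XIAP, BCL2L1, MCL1 and BBC3 rose and PMAIP1 and BAX fell in this line, against 23.9% and 25.9% of all genes. These changes share the 0 h libraries of their line, so the calls at 24 h and 48 h are not separate evidence. Library size alone moved the median of all genes by −0.07 in HepG2 at 24 h and by −0.16 in APOA4-KO at 48 h, and the share of calls that rose went from 38.4% to 26.2% and from 48.0% to 34.4%.

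The change from 0 h was also compared between the lines, as the change in APOA4-KO minus that in HepG2. At 24 h this difference was positive for BIRC2, XIAP and MCL1 and negative for BCL2L1 and BAX, where 16.8% of all genes had a positive and 15.4% a negative difference past the test. At 48 h it was positive for XIAP, BCL2L1, MCL1, BBC3 and BCL2L11 and negative for PMAIP1, against 18.6% and 17.8% of all genes. With library size alone, the median of all genes at 48 h shifted by −0.17, the positive share of calls went from 51.1% to 32.1%, and MCL1 and BBC3 were the members that kept a positive call.

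**Figure D2:**
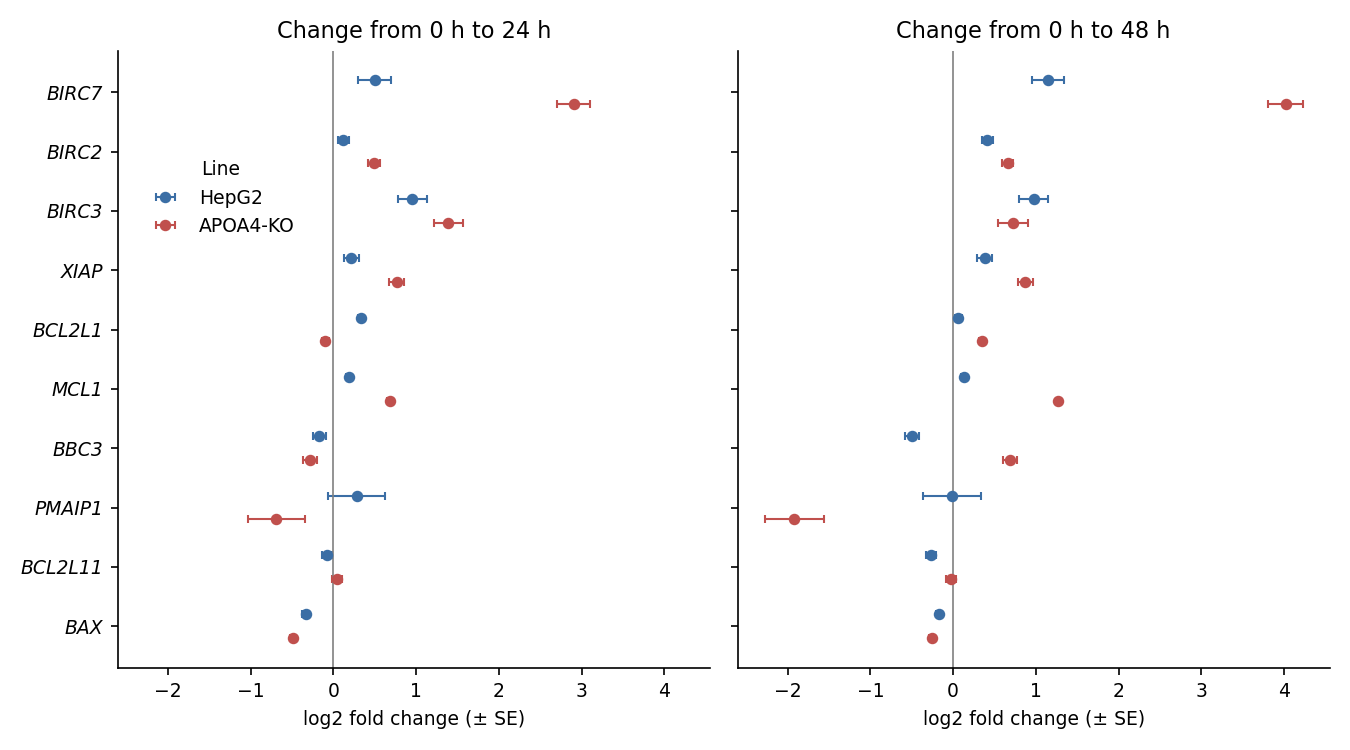
Log2 fold change from 0 h to 24 h (left) and to 48 h (right) in HepG2 and in APOA4-KO for each member, with the standard error from edgeR. At 48 h BBC3 lies on opposite sides of 0 in the 2 lines, at −0.49 in HepG2 and 0.68 in APOA4-KO, and PMAIP1 in APOA4-KO lies at −1.92.

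Of the 10 members, BIRC7 changed most from 0 h in APOA4-KO, the pattern for which it was chosen. In HepG2 its CPM was 0.806, 0.750 and 0.590 before hypoxia, 0.844, 1.06 and 1.13 after 24 h, and 1.53, 1.95 and 1.29 after 48 h. In APOA4-KO it was 0.391, 0.611 and 0.564 before hypoxia, 3.94, 3.81 and 4.02 after 24 h, and 8.44, 8.41 and 8.63 after 48 h. The lines overlapped at 0 h, whereas at 24 h and at 48 h every APOA4-KO library lay above every HepG2 library of any time. As raw counts, BIRC7 had 31 to 68 reads in the 0 h libraries of both lines and 608 to 638 in APOA4-KO at 48 h. The fitted level in APOA4-KO was 7.48-fold that of 0 h at 24 h and 16.2-fold at 48 h, with log2 fold changes of 2.90 (SE 0.20) and 4.02 (SE 0.21). Relative to HepG2, it was 0.73-fold at 0 h, 3.88-fold at 24 h and 5.35-fold at 48 h. These values describe the pattern for which the gene was selected on these libraries. On log2(FPKM + 1), a scale that understates the change of a low gene, the change in APOA4-KO at 48 h was 2.17 instead of 4.02.

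BIRC7 was chosen for its rise in APOA4-KO, and its change within HepG2 was tested. Since the members were chosen with earlier results of these data known, this test is not independent evidence. From 0 h, BIRC7 in HepG2 had a log2 fold change of 0.50 at 24 h (SE 0.20), which was not past the threshold (edgeR adjusted p = 0.067). Only 3 of 25 refits called it, among them DESeq2 at 0.53 (adjusted p = 0.032). At 48 h BIRC7 rose 2.22-fold in HepG2, a log2 fold change of 1.15 (SE 0.19, edgeR adjusted p = 1.5e-04), with all 3 libraries at 48 h above all 3 at 0 h.

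**Figure D3:**
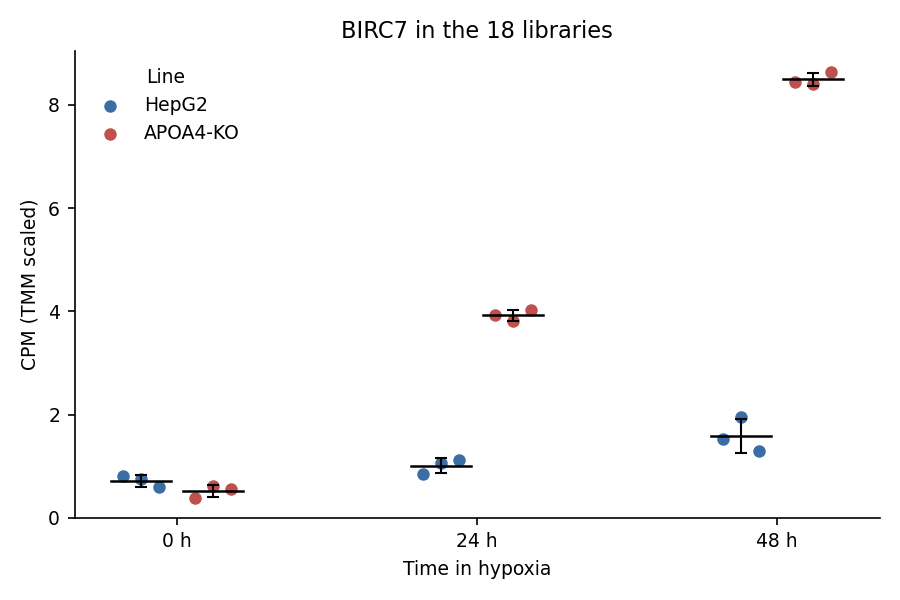
BIRC7 in CPM (TMM scaled) by time in hypoxia in HepG2 and APOA4-KO, with a point for each library and the mean ± SD of 3 libraries. The APOA4-KO libraries lie at 0.391 to 0.611 CPM at 0 h and at 8.41 to 8.63 CPM at 48 h, and the HepG2 libraries reach at most 1.95 CPM.

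Among the other IAPs, the caspase inhibitor XIAP was at 13.7 to 15.5 CPM in HepG2 and 12.1 to 15.7 CPM in APOA4-KO at 0 h and higher in APOA4-KO afterwards. Its CPM in HepG2 was 14.6, 13.7 and 15.5 before hypoxia, 16.6, 17.7 and 16.4 after 24 h, and 19.2, 19.8 and 18.1 after 48 h. The APOA4-KO libraries held 12.1, 15.7 and 15.6 CPM before hypoxia, 23.9, 26.9 and 23.0 after 24 h, and 23.9, 27.4 and 28.02 after 48 h. No APOA4-KO library overlapped with HepG2 at 24 h or 48 h. The log2 fold change between the lines was −0.01 at 0 h (adjusted p = 0.95), 0.54 at 24 h (SE 0.09, adjusted p = 5.4e-05) and 0.47 at 48 h (SE 0.09, adjusted p = 2.0e-04). Its change from 0 h was larger in APOA4-KO than in HepG2 by 0.55 at 24 h (adjusted p = 0.0024) and by 0.49 at 48 h (adjusted p = 0.0056), and the second of these was 0.31 and not past the threshold with library size alone (adjusted p = 0.066).

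The ubiquitin ligase BIRC2 (cIAP1) moved in a similar way. It was 31.1 to 34.8 CPM in HepG2 and 33.4 to 35.5 CPM in APOA4-KO at 0 h, and 42.1 to 48.1 CPM and 51.5 to 56.2 CPM at 48 h. From 0 h to 48 h BIRC2 rose 1.33-fold in HepG2 (edgeR adjusted p = 1.5e-04) and 1.58-fold in APOA4-KO (adjusted p = 1.7e-07). Its level was above that of HepG2 by 0.41 on the log2 scale at 24 h (adjusted p = 5.3e-05) and still by 0.29 at 48 h (adjusted p = 0.0015), and with library size alone the later difference was 0.14 and not past the threshold (adjusted p = 0.10). The difference between the lines in its change at 48 h, 0.25, was not past the threshold (adjusted p = 0.058), whereas 8 of 25 refits called it.

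BIRC3 (cIAP2), which is itself a target of NF-kB, peaked at 24 h in APOA4-KO. In HepG2 it was 2.21, 2.57 and 2.66 CPM before hypoxia, 4.26, 3.88 and 6.27 after 24 h, and 4.78, 5.15 and 4.65 after 48 h. In APOA4-KO it was 2.70, 3.08 and 2.92 CPM before hypoxia, 7.74, 7.95 and 7.13 after 24 h, and 3.54, 5.58 and 5.24 after 48 h. The libraries of the lines were apart at 0 h and at 24 h and overlapped at 48 h. At 0 h the log2 fold change between the lines was 0.23 and not past the threshold (edgeR adjusted p = 0.40). BIRC3 rose from 0 h in both lines at both times, by 0.95 and 0.97 on the log2 scale in HepG2 at 24 h and 48 h (adjusted p = 3.7e-04 and 3.6e-04) and by 1.39 and 0.72 in APOA4-KO (adjusted p = 2.4e-06 and 0.0022). Between the lines, the log2 fold change was 0.66 at 24 h (SE 0.18, adjusted p = 0.0038), whereas it was −0.02 at 48 h (adjusted p = 0.94). Without HepG2 24 h replicate 3 the change at 24 h was larger in APOA4-KO by 0.67 (adjusted p = 0.032) rather than by 0.44 (adjusted p = 0.22).

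Of the survival members of the BCL2 family, MCL1, a short-lived guardian that binds BH3-only proteins, had the clearest separation of the lines. In HepG2 its CPM was 109.3, 110.4 and 103 before hypoxia, 116, 123 and 127 after 24 h, and 116, 116 and 122 after 48 h. The APOA4-KO libraries held 111, 109.9 and 109.4 CPM before hypoxia, 180.1, 177 and 173 after 24 h, and 263, 271 and 265 after 48 h. The lines overlapped at 0 h and were far apart at both later times. The log2 fold change between the lines was 0.04 at 0 h (adjusted p = 0.49), 0.54 at 24 h (SE 0.03, adjusted p = 1.8e-10) and 1.18 at 48 h (SE 0.03, adjusted p = 1.8e-15). Of the 9 members taken by symbol, MCL1 was the only member past a fold change of 2 between the lines at 48 h, a limit that 2676 of the 19743 genes passed. From 0 h to 48 h MCL1 rose by 0.13 on the log2 scale in HepG2 (adjusted p = 0.0064) and 2.41-fold in APOA4-KO (adjusted p = 6.4e-16), a difference of 1.14 on the log2 scale (SE 0.05, adjusted p = 1.6e-12). This difference was 0.97 with library size alone.

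BCL2L1, which gives rise to the survival protein BCL-XL, rose at 24 h in HepG2 and was lower in APOA4-KO at that time. Its CPM in HepG2 was 712, 709.5 and 706 before hypoxia, 898, 904 and 885 after 24 h, and 743, 746 and 735 after 48 h. In APOA4-KO it was 692, 688 and 687 before hypoxia, 584, 658 and 690.4 after 24 h, and 867, 881 and 890.4 after 48 h. At 24 h the lowest APOA4-KO library was replicate 1, and all 3 lay below HepG2. BCL2L1 rose 1.26-fold in HepG2 at 24 h (adjusted p = 8.7e-07), and in APOA4-KO it fell by 0.10 on the log2 scale (adjusted p = 0.041), a fall that was −0.01 and not past the threshold without APOA4-KO 24 h replicate 1 (adjusted p = 0.71) and that 11 of 25 refits called. Between the lines, the log2 fold change at 24 h was −0.47 (SE 0.04, adjusted p = 2.6e-09), or −0.40 without that library. At 48 h BCL2L1 was higher in APOA4-KO by 0.25 (SE 0.04, adjusted p = 1.4e-05), or by 0.10 with library size alone (adjusted p = 0.020).

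The BH3-only gene BBC3, which encodes PUMA, was lower in APOA4-KO at 0 h and 24 h and higher at 48 h. Its CPM in HepG2 was 20.3, 22.6 and 18.2 before hypoxia, 17.3, 19.7 and 17.3 after 24 h, and 13.9, 13.7 and 15.8 after 48 h. The APOA4-KO libraries held 16.5, 16.7 and 15.2 CPM before hypoxia, 12.7, 13.5 and 13.6 after 24 h, and 26.7, 27.4 and 23.7 after 48 h. The libraries of the lines did not overlap at any time. The log2 fold change between the lines was −0.33 at 0 h (SE 0.08, adjusted p = 0.0047), −0.45 at 24 h (SE 0.08, adjusted p = 1.7e-04) and 0.84 at 48 h (SE 0.08, adjusted p = 7.4e-08). From 0 h to 48 h BBC3 fell to 0.71-fold in HepG2 (adjusted p = 1.7e-04) and rose 1.60-fold in APOA4-KO (adjusted p = 1.3e-06), and the changes differed by 1.18 on the log2 scale (SE 0.12, adjusted p = 2.0e-07). The fall at 24 h in APOA4-KO was −0.29 (adjusted p = 0.0093), and it was past the threshold neither without APOA4-KO 24 h replicate 1 (−0.24, adjusted p = 0.057) nor without APOA4-KO 0 h replicate 2 (−0.24, adjusted p = 0.055).

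PMAIP1, which encodes the MCL1-binding protein NOXA, was scarce and went the other way. In HepG2 its CPM was 0.747, 2.09 and 1.87 before hypoxia, 1.77, 1.71 and 2.24 after 24 h, and 1.41, 1.90 and 1.34 after 48 h. In APOA4-KO it was 3.31, 3.24 and 3.37 before hypoxia, 3.08, 1.45 and 1.59 after 24 h, and 0.805, 1.23 and 0.584 after 48 h. The APOA4-KO libraries were all above HepG2 at 0 h and all below HepG2 at 48 h, and at 24 h only replicate 1 remained near the 0 h level. At 0 h the log2 fold change of PMAIP1 between the lines was 1.07 (SE 0.35, adjusted p = 0.025). That call was lost without HepG2 0 h replicate 1 (0.74, adjusted p = 0.12) and without any single APOA4-KO 0 h library (1.06 to 1.09, adjusted p = 0.051 to 0.059). From 0 h to 48 h PMAIP1 fell to 0.26-fold in APOA4-KO (log2 fold change −1.92, SE 0.36, adjusted p = 1.8e-04), and its change in HepG2 was −0.02 (adjusted p = 0.99). The changes differed by −1.90 (SE 0.50, adjusted p = 0.0051). At 24 h the fall in APOA4-KO was −0.69 (adjusted p = 0.12), and −1.099 without replicate 1 (adjusted p = 0.019). The changes at 24 h differed by −0.97 (adjusted p = 0.15), and by −1.39 without that library (adjusted p = 0.033). The difference between the lines at 48 h, −0.83, was not past the threshold (adjusted p = 0.062), whereas 6 of 25 refits called it.

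BCL2L11 (BIM) moved least of the BH3-only members. It lay between 20.1 and 28.6 CPM in all 18 libraries. It was lower in APOA4-KO at 0 h by a log2 fold change of −0.28 (SE 0.06, adjusted p = 0.0016), and −0.16 at 24 h (adjusted p = 0.041), where 7 of 25 refits with other settings or with a library left out passed the threshold. Without APOA4-KO 24 h replicate 1 the difference at 24 h was −0.11 (adjusted p = 0.22). From 0 h to 48 h it fell to 0.83-fold in HepG2 (adjusted p = 0.0026), while its change in APOA4-KO was −0.03 (adjusted p = 0.74).

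BAX, the pore-forming effector, was lower in APOA4-KO at every time. In HepG2 its CPM was 121, 119 and 123 before hypoxia, 98.3, 97.2 and 92.0 after 24 h, and 105, 108.97 and 108 after 48 h. The APOA4-KO libraries held 92.3, 93.5 and 90.7 CPM before hypoxia, 63.6, 63.0 and 70.7 after 24 h, and 76.7, 77.0 and 77.7 after 48 h. The libraries of the lines did not overlap at any time. The log2 fold change between the lines was −0.39 at 0 h (SE 0.04, adjusted p = 2.3e-07), −0.54 at 24 h (SE 0.04, adjusted p = 8.0e-10) and −0.48 at 48 h (SE 0.04, adjusted p = 3.9e-09). BAX fell from 0 h in both lines, to 0.79-fold in HepG2 (adjusted p = 1.5e-06) and 0.71-fold in APOA4-KO (adjusted p = 4.2e-09) at 24 h. The difference between these changes, −0.15 (adjusted p = 0.044), was past the threshold in only 4 of 25 refits, and without APOA4-KO 24 h replicate 1 it was −0.11 (adjusted p = 0.16).

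**Figure D4:**
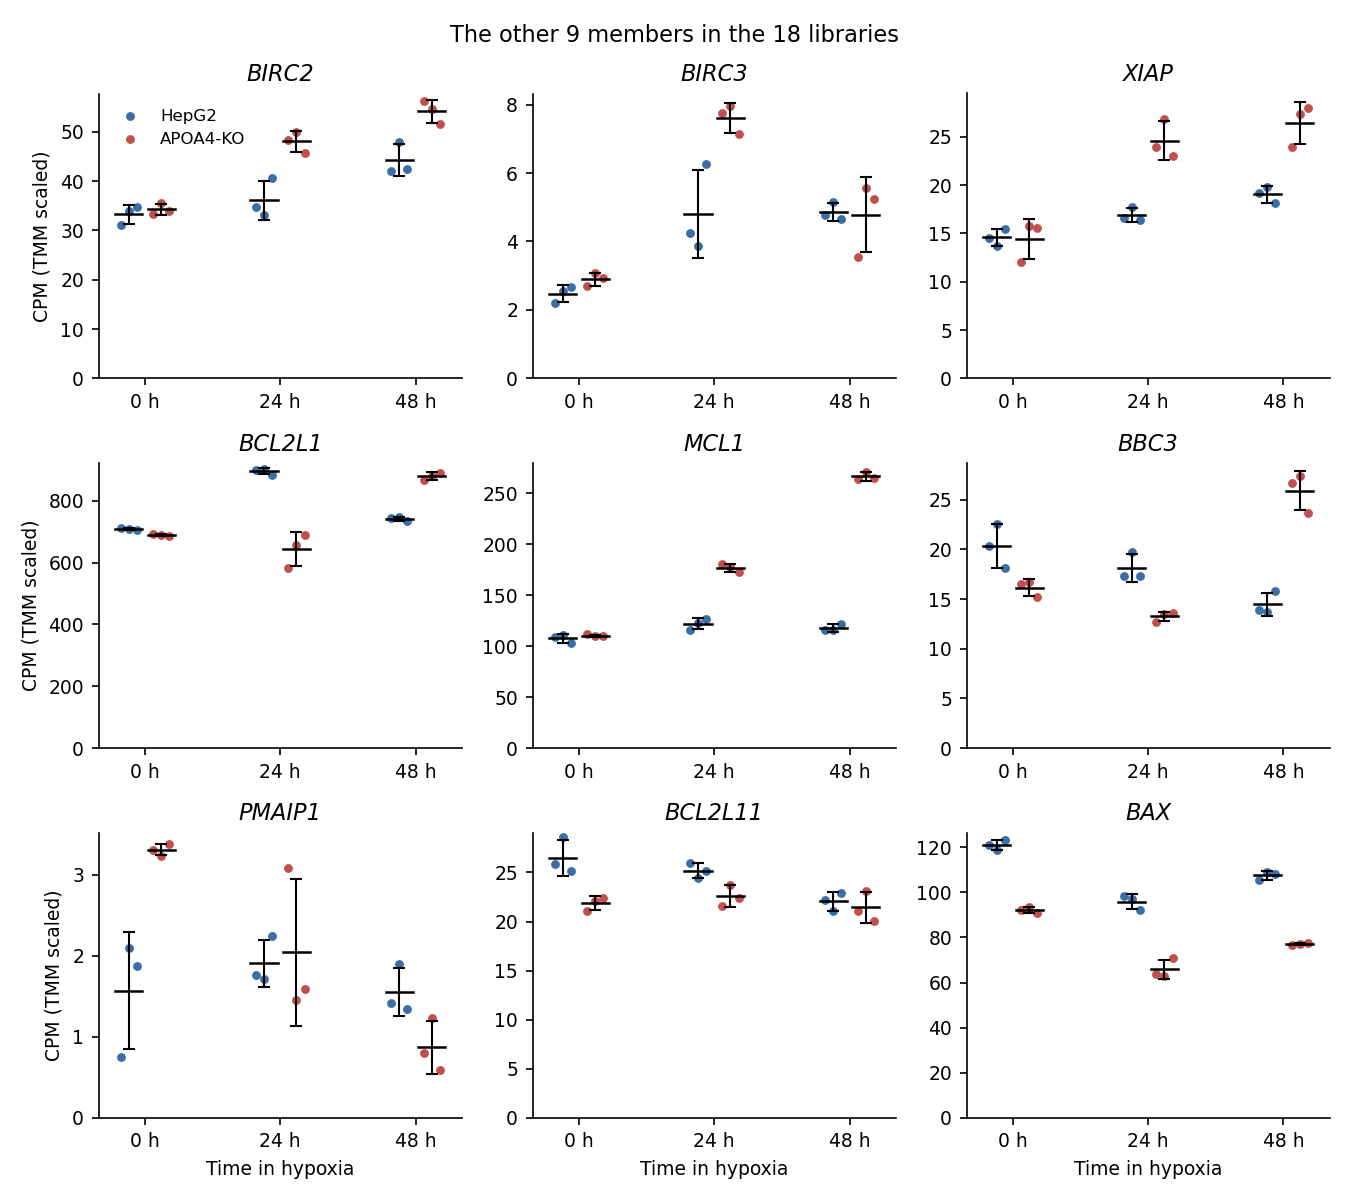
CPM (TMM scaled) of the other 9 members by time in hypoxia in HepG2 and APOA4-KO, with a point for each library and the mean ± SD of 3 libraries, each panel on its own axis from 0. MCL1 and XIAP rise above HepG2 in APOA4-KO at 24 h and 48 h, BAX lies below HepG2 at all 3 times, and BBC3 lies below at 24 h and above at 48 h.

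Levels of different genes were compared per length, in the deposited FPKM. BCL2L1 was the highest of the 10 members in every group, with 153 to 203 FPKM in the group means. BAX came next in the 3 HepG2 groups and in APOA4-KO at 0 h, at 35.2 to 46.7 FPKM, and MCL1 came after it. In APOA4-KO this order was exchanged, with MCL1 at 28.3 ± 0.917 (SD, n = 3) and BAX at 25.3 ± 1.35 FPKM at 24 h, and 38.9 ± 0.528 and 27.1 ± 0.087 FPKM at 48 h, and the ranges of the libraries were apart at both times. BIRC7 was ninth of 10 in HepG2 at 0 h, at 0.457 ± 0.078 FPKM, with libraries that overlapped those of PMAIP1 above it. In APOA4-KO BIRC7 was the lowest member at 0 h (0.330 ± 0.072 FPKM, overlapping BIRC3), lay beside XIAP at 24 h (2.51 ± 0.049, overlapping XIAP) and was sixth at 48 h (4.97 ± 0.060), below BBC3 and above BCL2L11 and apart from both.

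Of the FPKM of the 4 IAP members together, BIRC7 made up 4.76% ± 0.987 in HepG2 at 0 h and 7.52% ± 1.01 at 48 h (SD, n = 3). In APOA4-KO the share went from 3.30% ± 0.550 before hypoxia to 15.1% ± 0.995 after 24 h and 26.2% ± 0.707 after 48 h, with no overlap between these groups. MCL1 made up 8.42% to 9.74% of the FPKM of MCL1 and BCL2L1 in the 3 HepG2 groups and in APOA4-KO at 0 h, and 15.7% ± 1.41 and 17.0% ± 0.2397 in APOA4-KO at 24 h and 48 h. The ratio of BAX to BCL2L1 in FPKM was 0.277 ± 0.006, 0.174 ± 0.004 and 0.235 ± 0.005 in HepG2 at 0 h, 24 h and 48 h, and 0.217 ± 0.003, 0.166 ± 0.011 and 0.142 ± 0.001 in APOA4-KO. The lines were apart at 0 h and 48 h. At 24 h they overlapped only through APOA4-KO replicate 1, at 0.177, since its other 2 libraries, at 0.155 and 0.166, lay below the 0.169 to 0.177 of HepG2. These shares and ratios within a library do not depend on its scaling, and they were not tested.

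**Figure D5:**
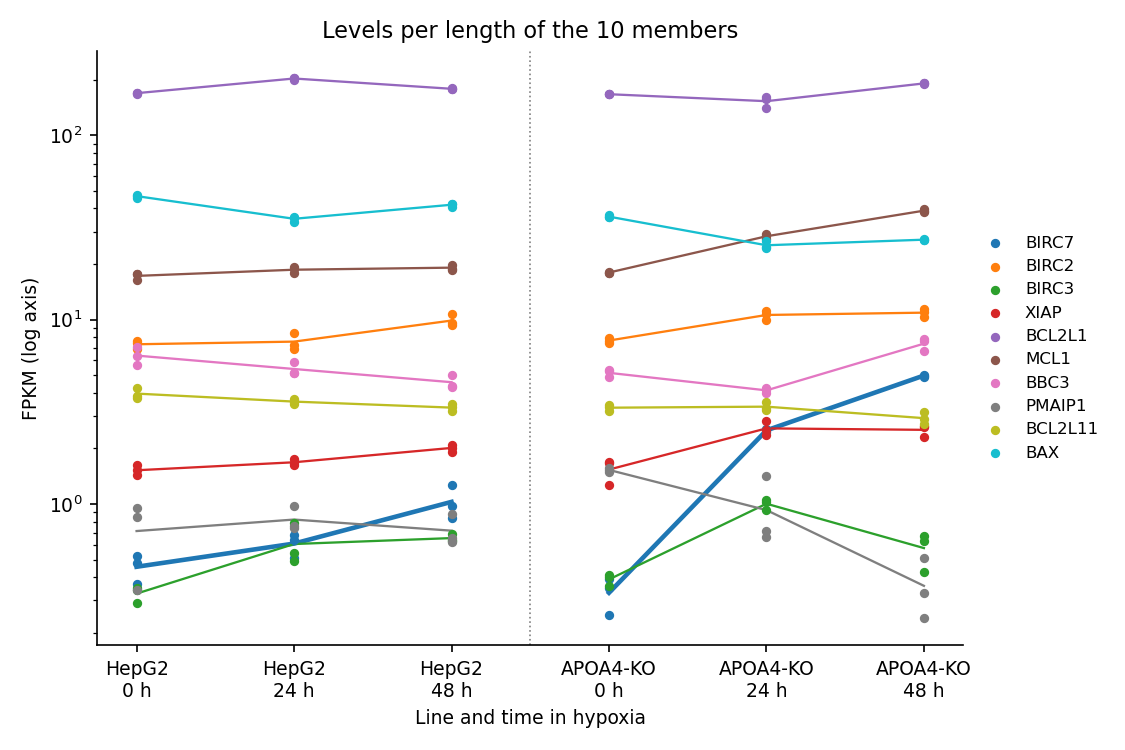
FPKM of the 10 members on a log axis in the 6 groups, with a point for each library and lines through the group means. BIRC7 (thick line) goes from the lowest member in APOA4-KO at 0 h to 4.97 FPKM at 48 h, and MCL1 crosses BAX in APOA4-KO.

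Both families and the pathways around them were read from lists. The family lists include the members, so their counts hold calls already given above. Here and in the lists that follow, non-members with values were picked for the largest called differences between the lines at 48 h. Their adjusted p-values at 48 h were thus past the threshold by choice and are a description. The counts of each list are to be read against the shares of all genes called between the lines, which were 12.9% higher and 17.6% lower before hypoxia, 23.6% and 24.6% after 24 h, and 23.5% and 27.3% after 48 h. In the IAP family, 7 of 8 genes were tested and BIRC8 had no count in any library. Of the 6 tested without the selected BIRC7, 1 was higher in APOA4-KO at 0 h and none lower, 4 were higher and 1 lower at 24 h, and 3 were higher and 1 lower at 48 h. BIRC6, a giant IAP with a ubiquitin-conjugating domain, was higher in APOA4-KO at the 3 times, with log2 fold changes of 0.30, 1.15 and 0.36 (adjusted p-values by edgeR of 6.2e-06, 2.5e-14 and 1.6e-07). BIRC5 (survivin), which also serves in cell division, was lower at 48 h by a log2 fold change of −0.72 (adjusted p = 6.5e-12). Of the 4 IAP antagonists, 0 were called at 0 h, 2 were lower at 24 h, and 1 was higher and 1 lower at 48 h. DIABLO (SMAC), which is released from mitochondria and binds XIAP, was lower at 24 h by −0.35 (adjusted p = 2.8e-06) and at 48 h by −0.15 (adjusted p = 0.012), the latter in 20 of 25 refits. HTRA2 went from −0.21 at 24 h (adjusted p = 0.0012) to 0.22 at 48 h (adjusted p = 6.5e-04), or 0.07 and not past the threshold with library size alone (adjusted p = 0.20).

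Among the survival members of the BCL2 family, 5 of 6 genes were tested, and BCL2L10 had no count in any library. None was called at 0 h, 2 were higher and 1 lower at 24 h, and 3 were higher at 48 h. BCL2L2 (BCL-W) rose in APOA4-KO from 28.5 ± 2.91 CPM at 0 h to 64.7 ± 2.68 at 24 h and 54.6 ± 0.98 at 48 h (SD, n = 3), and it was 31.6 ± 1.102, 36.9 ± 3.53 and 36.6 ± 2.74 CPM in HepG2. All 3 effectors, BAX, BAK1 and BOK, were lower in APOA4-KO at 0 h, 24 h and 48 h. For BAK1 the log2 fold change was −0.36, −0.87 and −0.71 (adjusted p = 1.0e-06, 1.9e-12 and 2.5e-11), and for BOK it was −0.11, −0.81 and −0.36 (adjusted p = 0.036, 1.5e-12 and 1.3e-07), where 17 of 25 refits called the difference at 0 h. Of the 8 BH3-only genes, 2 were higher and 4 lower at 0 h, 0 higher and 5 lower at 24 h, and 2 higher and 2 lower at 48 h, the last near the shares of all genes. BMF, a BH3-only gene linked to loss of attachment, was higher at 48 h by 1.02 (adjusted p = 2.4e-13), whereas BID (−0.82, adjusted p = 4.7e-09) and BAD (−0.68, adjusted p = 9.7e-07) were lower. BID and BAD were already lower at 0 h, by −0.44 and −0.44 (adjusted p = 4.0e-05 and 2.8e-04). The change of BAD from 0 h to 48 h did not differ past the threshold between the lines (−0.23, adjusted p = 0.13).

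Of the 9 genes of the apoptosome and caspases, 1 was higher and 3 lower at 0 h, 3 higher and 2 lower at 24 h, near the shares of all genes, and 1 higher and 7 lower at 48 h. CASP2, CASP6 and CASP9 were lower in APOA4-KO at 48 h by log2 fold changes of −1.01, −0.98 and −0.77 (adjusted p = 1.0e-10, 1.0e-06 and 3.0e-07). CASP9 was already lower at 0 h by −0.53 (adjusted p = 6.9e-05). Its change from 0 h to 48 h did not differ past the threshold between the lines (−0.24, adjusted p = 0.14). Of the 15 tested genes of the death receptors and their complexes, 2 were higher and 6 lower at 0 h, 1 higher and 4 lower at 24 h, and 5 higher and 5 lower at 48 h. The share lower at 24 h, 26.7%, was near that of all genes. FAS and its adaptor FADD were lower at 48 h by −1.47 and −1.10 (adjusted p = 1.1e-09 and 6.2e-12), while the decoy receptor TNFRSF10D was higher by 0.94 (adjusted p = 1.4e-11).

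The regulators of these genes were listed too. Of 12 genes of p53 and its targets, 11 were lower in APOA4-KO at 0 h, 1 was higher and 8 lower at 24 h, and 2 were higher and 9 lower at 48 h. PHLDA3 and TP53I3 were lower at 48 h by −1.60 and −1.32 (adjusted p = 6.0e-11 and 2.3e-15). GDF15, which other stress pathways induce as well, was lower at 0 h by −0.45 and higher at 48 h by 2.55 (adjusted p = 2.1e-10 and 2.0e-21), at 1611 ± 40.3 CPM in APOA4-KO against 276 ± 1.05 CPM in HepG2. Of 10 genes of NF-kB and its targets, 2 were higher and 4 lower at 0 h, 4 higher and 6 lower at 24 h, and 7 higher and 1 lower at 48 h. TNFAIP3, ICAM1 and CXCL8 were higher at 48 h by 1.73, 1.23 and 1.55 (adjusted p = 7.3e-16, 3.9e-16 and 3.7e-05). CXCL8 was already higher at 0 h by 1.21 (adjusted p = 7.4e-04). It fell from 0 h to 48 h in both lines, and these changes did not differ past the threshold (0.34, adjusted p = 0.51). ICAM1 was lower at 24 h by −0.50 (adjusted p = 1.8e-10). Among 5 regulators of BH3-only genes through CHOP and FOXO factors, 1 was higher and 1 lower at 0 h, and 2 were higher and 2 lower at 24 h and at 48 h. FOXO1 and FOXO3 were higher at 48 h by 1.33 and 1.36 (adjusted p = 1.8e-12 and 3.9e-13), and TRIB3 was lower by −0.49 (adjusted p = 8.0e-11). These lists were written with earlier results of the same data known, and their counts are no independent evidence.

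Over the 18 libraries, the genes whose log2 CPM was most like that of BIRC7, among 12400 genes compared, were FNBP1L (Pearson's r = 0.987), KMT5B (0.983), FNDC3B (0.980), DDX21 (0.980) and RAP2B (0.978). The libraries share lines and times, so these values describe a common pattern over 6 groups. The likeness was of shape and not of size: from 0 h to 48 h in APOA4-KO, these 5 genes had log2 fold changes of 1.06 to 1.83, against 4.02 for BIRC7. The nearest tested genes beside BIRC7 on chromosome 20 are YTHDF1, 19649 bases away, and ARFGAP1, 32278 bases away on the other side. YTHDF1 was 72.9 ± 3.33 CPM in APOA4-KO at 0 h and 79.4 ± 1.86 at 48 h (SD, n = 3), or 0.12 higher on the log2 scale (adjusted p = 0.033), but −0.04 and not past the threshold with library size alone (adjusted p = 0.55). ARFGAP1 fell by 0.24 on the log2 scale in the same comparison (adjusted p = 7.8e-07). MIR3196, which lies within BIRC7, had a total count of 0.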

How the data were processed

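Per the labels, the tools used were fastp, HISAT2 and StringTie with genome build GRCh38.p13. By the study's methods, the authors trimmed paired reads, aligned them with HISAT2 and ran featureCounts for gene-level counts. The deposited counts are raw and without normalization, for 61806 genes and 18 libraries. The FPKM values, for 33601 genes, were also deposited by the authors, as counts per gene length and library total.

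The tests used edgeR 4.0.16 under R 4.3.3, with filterByExpr on the 6 groups, TMM, a quasi-likelihood model over all 18 libraries with a coefficient per group, and Benjamini-Hochberg adjustment over 19743 genes. A call is an adjusted p under 0.05, and the SE is the log2 fold change divided by the root of F. There were 9 comparisons: the lines at each time, the changes from 0 h in each line, and the differences of these changes. The script was tested on simulated data. Alternatives were DESeq2 1.42.0, DESeq2 size factors, library size alone, no low-count filter, limma 3.58.1 on log2(FPKM + 1), fits of only the groups compared, a replicate block, and 18 refits without a library. In lists, up to 3 non-members were named by the largest change between the lines at 48 h (adjusted p under 0.05, mean of at least 100 counts). The members, lists and rules were chosen with earlier results of these data known.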

Additional observations from a re-analysis of the deposited data

Results flagged for a closer look

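The change from 0 h differed between the lines, by the edgeR test of the difference itself, for the following members (log2 change in APOA4-KO minus that in HepG2). At 24 h the difference was 0.37 for BIRC2 (adjusted p = 0.0066), 0.55 for XIAP (0.0024), −0.43 for BCL2L1 (2.8e-06), 0.50 for MCL1 (2.3e-07) and −0.15 for BAX (0.044). At 48 h it was 0.49 for XIAP (adjusted p = 0.0056), 0.29 for BCL2L1 (2.0e-04), 1.14 for MCL1 (1.6e-12), 1.18 for BBC3 (2.0e-07), −1.90 for PMAIP1 (0.0051) and 0.24 for BCL2L11 (0.039). For BAX at 24 h the call was held by 4 of 25 refits. At 48 h it was held by 15 refits for BCL2L11, 23 for BCL2L1 and 24 for XIAP. The other calls given here were held by all 25 refits. The cause of these differences was not tested.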

How the results depend on the processing

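The counts of all genes higher or lower moved by less than 1.5 times in each of the 9 comparisons under every alternative. Of the 9 members taken by symbol, the number lower in APOA4-KO at 48 h went from 1 to 3 with library size alone, 2 with DESeq2 and 3 with limma on log2(FPKM + 1). The number that fell in HepG2 at 24 h went from 1 to 2 with library size alone and with limma. The difference of changes was negative at 24 h for 2 members, and for 1 with library size alone, without the low-count filter, with only the groups compared and with the replicate block. At 48 h it was positive for 5 members, for 2 with library size alone and for 3 with limma, and negative for 1, and for 2 with both. With a library left out, the number higher at 0 h was 0 to 1, the number lower at 48 h 1 to 2, the number that fell 1 to 2 in HepG2 and 1 to 3 in APOA4-KO at 24 h, and the number with a negative difference at 24 h 1 to 2.

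Among the members, signs turned only for values that were not past the threshold. The rise of YTHDF1, a neighbour of BIRC7, in APOA4-KO at 48 h (0.12, past the threshold) was −0.0365 with library size alone and −0.0338 with limma. XIAP between the lines at 0 h (−0.01) was 0.0155 with DESeq2 size factors, 0.0110 with library size alone and with DESeq2, 0.0041 with limma and 0.0182 with only the groups compared. BIRC3 between the lines at 48 h (−0.02) was 0.0291, 0.0173 and 0.0030 with DESeq2 size factors, DESeq2 and only the groups compared, and BCL2L11 (−0.04) was 0.0104 with DESeq2 size factors. The change of PMAIP1 in HepG2 at 48 h (−0.02) was 0.0187 with limma and 0.0147 with only the groups compared, and that of BCL2L11 in APOA4-KO at 48 h (−0.03) was 0.0018 with the latter. With a library left out, the difference between the lines ranged from −0.0794 to 0.1007 for XIAP at 0 h, from −0.3111 to 0.2955 for PMAIP1 at 24 h, from −0.1476 to 0.1543 for BIRC3 at 48 h and from −0.0989 to 0.0031 for BCL2L11 at 48 h. The change in HepG2 ranged from −0.0481 to 0.5465 for PMAIP1 at 24 h and from −0.3297 to 0.2645 at 48 h, and that of BCL2L11 in APOA4-KO at 48 h from −0.0857 to 0.0162. The cause was not tested.

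Same-numbered replicates correlated at −0.05 to 0.02 in their deviations from the group means over all genes tested. No pairing by number was seen, though one in part of the genes could be missed. With the replicate block, the call of BAX in the difference of changes at 24 h was lost (−0.15, adjusted p = 0.059) and no other call of a member changed. BIRC7 had 31 reads in its lowest library, which limits the precision of its level at 0 h.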
